A study of Mus musculus with 45 samples.

Results

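Carbonic anhydrases and bicarbonate transporters were described by 10 genes in bone marrow-derived macrophages, which were 6 carbonic anhydrases (*Car2*, *Car5b*, *Car7*, *Car9*, *Car11* and *Car13*) and 4 transporters of the Slc4 family (*Slc4a2*, *Slc4a3*, *Slc4a7* and *Slc4a8*). They were chosen by name, with earlier results of these data known. Of the 10, 9 were named in the authors' table of CPM (read counts scaled to library size), and *Car11* was found in the table of 29307 counted genes through its identifier in the GENCODE annotation. All 10 were among the 12905 genes with enough reads to be tested.

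Macrophages had been grown for 6 days from the marrow of C57BL/6N mice aged 6 to 10 weeks that carry human-variant forms of *Famin*. The genotypes were *Famin* p.254I, the human non-risk form, *Famin* p.254V, the common risk form, and *Famin* p.284R, the form that causes monogenic disease, written p.254I, p.254V and p.284R below, with 5 mice each. Cells of each mouse were left as M0 or polarized to M1 with IFN-γ and LPS or to M2 with IL-4, which gave 45 libraries in 9 groups of 5. A genotype and number shared by 3 libraries was read as cultures of a single mouse. All 3 genotypes carry an engineered allele, so no unmodified mouse was compared. *Famin* encodes an enzyme of purine nucleoside metabolism.

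Carbonic anhydrases interconvert carbon dioxide and water with bicarbonate and a proton, and family members sit in the cytosol, in mitochondria or on the cell surface. Slc4 proteins then carry bicarbonate across membranes, either in exchange for chloride or together with sodium, and so set cytoplasmic pH and chloride. In cells of the macrophage lineage this machinery is best known from the osteoclast, where CAR2 supplies the protons that dissolve bone and SLC4A2 removes the bicarbonate left behind.

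Promoter windows of 250 bases before and 50 bases after an annotated start site were at hand from RefSeq (GRCm38.p6) for 8 of the 10 genes. Shown here are those of *Slc4a8*, the transporter with the largest rise in M1, of *Car5b*, the anhydrase with the largest rise in M2 among genes with a window, and of *Car9*, a textbook hypoxia target. They are at chr15:100761497-100761796 on the plus strand, chrX:164027961-164028260 on the minus strand and chr4:43506776-43507075 on the plus strand. Capitals mark an AP-1 heptamer and the hypoxia response core on its reverse strand.

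Slc4a8: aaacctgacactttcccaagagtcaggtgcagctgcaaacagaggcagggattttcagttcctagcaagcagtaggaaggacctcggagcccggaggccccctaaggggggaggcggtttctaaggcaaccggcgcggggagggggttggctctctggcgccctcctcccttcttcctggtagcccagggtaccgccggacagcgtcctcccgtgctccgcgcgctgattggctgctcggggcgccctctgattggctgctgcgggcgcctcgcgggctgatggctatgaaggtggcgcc

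Car5b: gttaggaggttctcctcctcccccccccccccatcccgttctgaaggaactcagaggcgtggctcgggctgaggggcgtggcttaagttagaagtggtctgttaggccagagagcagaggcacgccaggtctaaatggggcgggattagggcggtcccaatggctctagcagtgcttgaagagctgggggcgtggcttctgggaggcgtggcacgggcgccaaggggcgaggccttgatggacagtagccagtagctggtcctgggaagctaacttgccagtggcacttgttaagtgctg

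Car9: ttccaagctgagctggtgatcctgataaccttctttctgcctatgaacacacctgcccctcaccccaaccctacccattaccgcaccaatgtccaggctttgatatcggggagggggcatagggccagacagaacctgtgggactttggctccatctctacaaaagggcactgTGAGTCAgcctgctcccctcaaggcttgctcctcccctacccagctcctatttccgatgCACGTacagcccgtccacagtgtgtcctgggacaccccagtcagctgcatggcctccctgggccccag

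Motifs were searched on both strands of 12 windows of these 8 genes. *Car9* held the hypoxia response core ACGTG, whose match began 18 bases before the start site and which 19.6% of 32851 RefSeq mouse windows of this length hold. It also held the AP-1 motif TGANTCA, 77 bases before the start site, found in 7.81% of windows. *Car7* held the N4 STAT site, 30 bases after a start site, as did 6.95% of windows. The PU.1 letters GAGGAA stood in 4 windows of *Car7*, *Car11* and *Slc4a2*, against 28.3% of all windows. No window held the GAS motif TTCNNNGAA (8.30% of all windows), the ISRE core (3.44%) or the kappaB motif (1.47%), so the windows of *Slc4a8* and *Car5b* held none of these letters. A match describes letters in these windows and was not tied to any expression value.

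Total counts per library ran from 17239009 to 43740283 with a median of 27553642, and 1 CPM stood for 16.4 to 48.2 reads. CPM below is scaled to library totals by the trimmed mean of M-values (TMM). Markers of each polarization were read against the labels. *Cxcl9*, an interferon-induced chemokine, ran from 979 to 5340 CPM in M1 and did not exceed 1.45 CPM elsewhere. *Gbp2* and *Cxcl10* in M1 also lay above all other libraries, *Nos2* ran from 3.01 to 149 CPM in M1 against at most 0.574 CPM elsewhere, and *Il12b*, which was not tested, stayed at or under 0.201 CPM in all. *Retnla*, a gene induced by IL-4, ran from 1290 to 9290 CPM in M2. The M1 library of p.254I mouse 5 stood apart, with 49.1 CPM of *Retnla* against at most 0.249 CPM in the other 14 M1 libraries, or 1.5% of the M2 median. Without it none of the polarization calls of the 10 genes changed, and *Car2* in M1 against M0 was 0.02 on the log2 scale. Of 7 macrophage markers, 1 was higher and 5 were lower in M1, and 1 was higher and 6 were lower in M2. Of all genes tested, 37.0% were higher and 40.3% lower in M1, and 36.8% were higher and 39.6% lower in M2. *Csf1r*, *Adgre1*, *Cd68* and *Lyz2* held at least 756 CPM in every library, while *Itgam* went down to 126 CPM in M1, and *Mertk* and *Fcgr1* went down to 42.8 and 34.8 CPM in M2. The 8 erythroid markers, which include the red cell anhydrase *Car1* and the red cell exchanger *Slc4a1*, summed to at most 0.0812 CPM. Neutrophil markers summed to 26.1 to 281 CPM in M0, 40.9 to 135 in M1 and 16.1 to 73.1 in M2. Stromal markers summed to 17.1 to 90.4, 6.49 to 20.2 and 9.61 to 32.7 CPM, dendritic markers to at most 12.9 CPM, B cell markers to at most 11.8 CPM and T cell markers to at most 0.193 CPM. Counts per gene do not read the amino acid at position 254 or 284, so the genotypes were not checked.

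Levels were compared between genes only per kilobase of annotated exon. In M0, *Car13* led with a mean of 13.6 CPM per kb, followed by *Slc4a2* with 12.2, *Car9* with 4.98, *Slc4a7* with 4.16 and *Car5b* with 1.30 CPM per kb. The ranges of *Car13* and *Slc4a2* overlapped over the 15 libraries, as did those of *Car9* and *Slc4a7*. The other 5 genes stood below 0.36 CPM per kb on average, with *Slc4a3*, *Car11*, *Car7* and *Car2* overlapping and *Slc4a8* last at 0.0176. In M1 the first 4 places stayed in this order, and *Slc4a8* came next with 0.705 CPM per kb. In M2 *Car2* led with a mean of 15.1 CPM per kb, but its SD was 15.3 and its libraries spanned those of the next 5 genes.

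**Figure D1:**
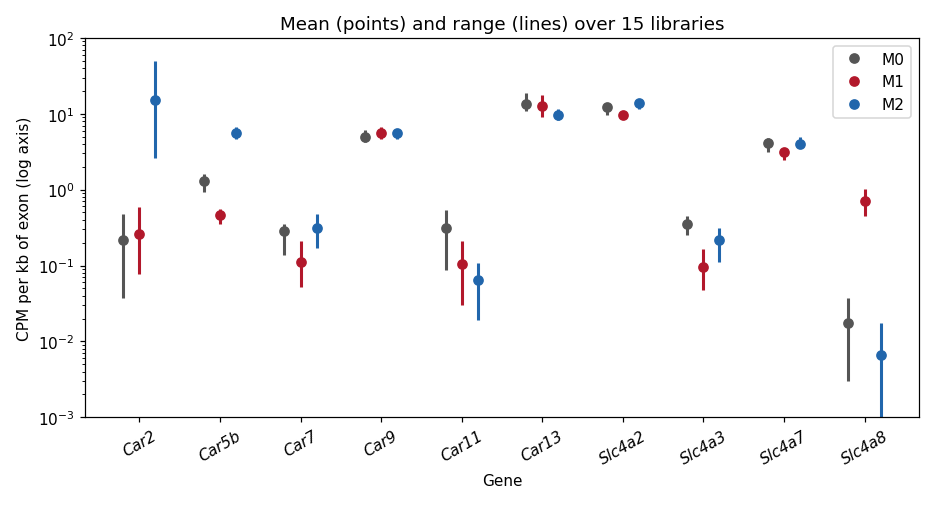
Level of each gene in CPM per kilobase of exon on a log axis, with points for the mean and lines for the lowest to highest of 15 libraries in M0, M1 and M2. *Car2* spans 2.57 to 49.3 CPM per kb in M2, and the M2 line of *Slc4a8* leaves the axis at the bottom because 2 libraries had no read.

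*Car13*, a cytosolic anhydrase, held a median of 65.5% of the summed per-kilobase level of the 6 anhydrases in M0 and 64.5% in M1, but 32.6% in M2. *Car2* held a median of 0.729% in M0, 1.23% in M1 and 19.4% in M2, where its share ran from 10.4% to 69.9%. *Slc4a2* held most of the summed level of the 4 transporters throughout, from 67.7% to 79.6% over the 45 libraries. *Slc4a8* held at most 0.213% of that sum in M0 and 0.0914% in M2, against 3.13% to 7.30% in M1.

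M1 was compared with M0 as the mean over genotypes in edgeR (quasi-likelihood F, Benjamini-Hochberg adjustment over all tested genes). Of the 10 genes, 2 rose (*Slc4a8* and *Car9*) and 6 fell (*Car5b*, *Car7*, *Car11*, *Slc4a2*, *Slc4a3* and *Slc4a7*). Among all genes tested, 37.0% rose and 40.3% fell, so changed genes were common in the background. The libraries of the 2 polarizations did not overlap for 3 of the 10 genes, against 28.6% of all genes. The median log2 fold change of the 10 was -0.37, against -0.03 over all genes.

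M2 was compared with M0 in the same way and shares the M0 libraries, so the 2 comparisons are not independent. In M2, 4 genes rose (*Car2*, *Car5b*, *Car9* and *Slc4a2*) and 4 fell (*Car11*, *Car13*, *Slc4a3* and *Slc4a8*), where 36.8% of all genes rose and 39.6% fell. Libraries did not overlap for 2 of the 10, against 23.4% of all genes. Between M1 and M2 directly, 2 genes were higher in M1 (*Car13* and *Slc4a8*) and 6 were lower (*Car2*, *Car5b*, *Car7*, *Slc4a2*, *Slc4a3* and *Slc4a7*), where 39.0% of all genes were higher and 40.1% lower. Here 4 of the 10 did not overlap, against 35.7% of all genes. In bulk RNA, fewer cells that express a gene and less of its RNA per cell cannot be told apart.

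**Figure D2:**
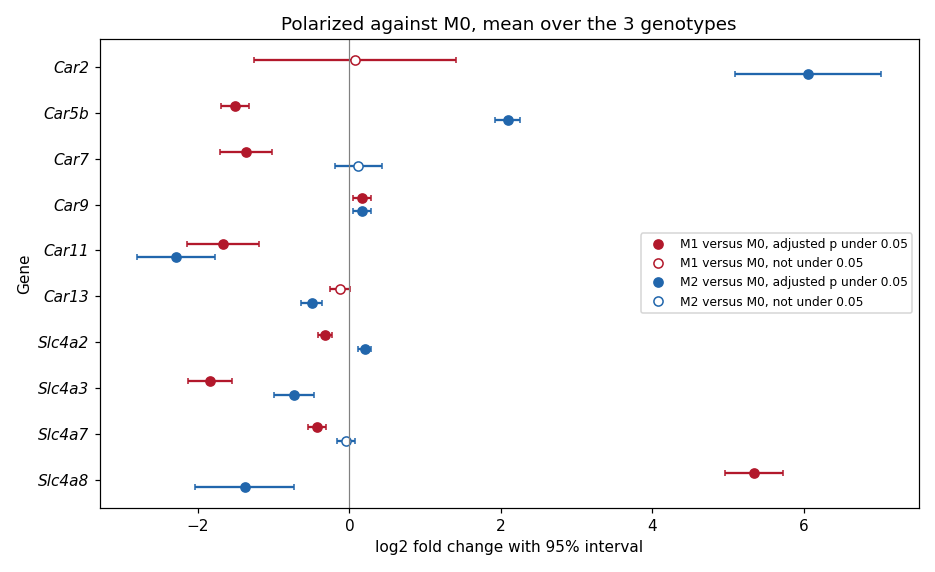
Log2 fold change of each gene in M1 and in M2 against M0, as the mean over 3 genotypes, with 95% intervals from edgeR. *Car2* and *Slc4a8* each stand far to the right in a single polarization, *Car5b* moves in opposite directions, and open points mark genes that did not pass the adjusted threshold of 0.05.

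*Car2* (ENSMUSG00000027562), at chr3:14886273-14900770 on the plus strand of mm10, encodes the fast cytosolic anhydrase. It was near the limit of detection in M0, where libraries ran from 0.0902 to 1.17 CPM with a median of 0.373 CPM and held 2 to 38 reads. In M1 it ran from 0.188 to 1.45 CPM with a median of 0.565 CPM. In M2 it ran from 6.24 to 119 CPM with a median of 12.0 CPM, and every M2 library lay above all M0 and M1 libraries. On the log2 scale the difference was 6.05 (SE 0.48, adjusted p = 2.1e-14, edgeR) for M2 against M0 and 0.07 (SE 0.66, adjusted p = 0.93) for M1 against M0, the latter with a 95% interval from -1.26 to 1.40. *Car2* rose in M2 in all 15 mice.

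The M2 level of *Car2* varied 19.1-fold between mice. In the replicates numbered 1, it was 73.1 CPM in p.254I, 30.8 in p.254V and 42.1 in p.284R. In those numbered 2, it was 119, 50.9 and 101 CPM in the same order. In those numbered 3, it was 8.67 and 6.24 CPM in p.254I and p.254V, and 59.4 CPM in p.284R. The remaining 6 libraries, numbered 4 and 5, held between 7.66 and 12.0 CPM. The 7 libraries at 30.8 CPM or more came from all 3 genotypes, and 6 of the 7 carried the numbers 1 and 2.

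The number also separated *Car2* in M0. The 6 libraries numbered 1 and 2 held 0.691 to 1.17 CPM and the 9 numbered 3 to 5 held 0.0902 to 0.395 CPM, without overlap. The labels do not say what the number stands for. The split was chosen after the values were seen, and how many of all genes separate by number was not counted. Over all tested genes, M0 libraries sharing a number across genotypes deviated together in 15 of 15 pairs (r from 0.14 to 0.81). The split is thus not shown to be particular to *Car2*. Fitted apart, the M2 rise had a log2 fold change of 6.14 (adjusted p = 2.5e-09, edgeR) in the libraries numbered 1 and 2 and 5.67 (adjusted p = 1.5e-10) in those numbered 3 to 5.

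**Figure D3:**
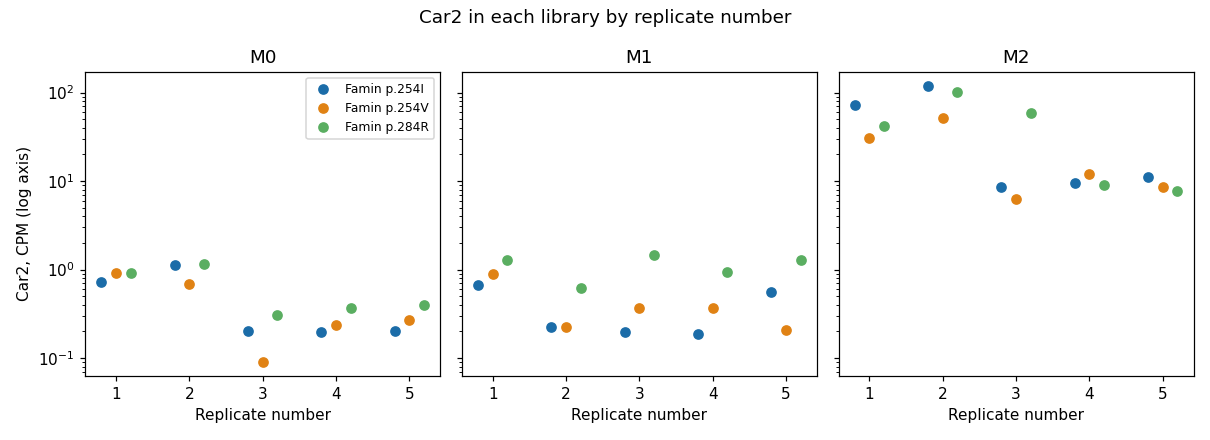
*Car2* in CPM on a log axis in each of the 45 libraries, by replicate number and coloured by genotype, with panels for M0, M1 and M2. M0 libraries numbered 1 and 2 sit above all those numbered 3 to 5, and M2 libraries sit above every M0 and M1 library.

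The genes whose log2 level followed *Car2* most closely over the 45 libraries were *Ccl22* (Pearson r = 0.979), *Ttll11* (0.976) and *Cdh1* (0.971). Within the 15 M2 libraries they were *Plpp2* (r = 0.983), *Il1rn* (0.982) and *Mmp13* (0.981). *Il1rn*, which encodes the interleukin-1 receptor antagonist, ran from 43.8 to 448 CPM over them. *Mmp13*, a collagenase, ran from 116 to 581 CPM. Such correlations describe libraries that share mice and depth. Those over the 45 libraries, here and for the genes below, also carry the differences between polarizations, which were not removed.

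Because *Car2* is a classical osteoclast gene, 8 osteoclast markers were read beside it. Of these, 6 were tested. In M2 all 6 rose, among them the cell fusion genes *Ocstamp*, at 8.16 on the log2 scale (SE 0.22, adjusted p = 2.2e-29, edgeR), and *Dcstamp*, at 2.68 (SE 0.19, adjusted p = 1.1e-15). In M1, 1 rose and 5 fell. Of all genes tested, 36.8% rose in M2, and 37.0% rose and 40.3% fell in M1. Their sum ran from 317 to 1350 CPM in M0, 36.0 to 121 in M1 and 1810 to 3710 in M2. *Mmp9*, a gelatinase of osteoclasts and other myeloid cells, ran from 216 to 1880 CPM in M2. It held 833 to 1880 CPM in the libraries numbered 1 and 2, 363, 393 and 1220 CPM in p.254V, p.254I and p.284R of number 3, and 216 to 478 CPM in those numbered 4 and 5. In the libraries numbered 1 and 2 and those numbered 4 and 5, the ranges overlapped for *Acp5* (48.1 to 74.3 and 46.6 to 87.3 CPM), *Ctsk* (24.4 to 36.0 and 23.3 to 38.2 CPM) and *Atp6v0d2* (1230 to 1510 and 1330 to 1620 CPM). *Ocstamp* held 181 to 297 and 79.2 to 156 CPM, without overlap, and *Dcstamp* 172 to 262 and 72.4 to 180 CPM. At number 3, *Ocstamp* held 139, 163 and 322 CPM in p.254V, p.254I and p.284R, and *Dcstamp* 181, 206 and 307 CPM. With number 3 placed beside 4 and 5, the ranges of *Ocstamp* overlapped. How many of all genes separate between numbers 1 and 2 and numbers 4 and 5 was not counted. *Calcr*, the calcitonin receptor, had no read in any M2 library, and *Oscar* did not exceed 0.193 CPM there. The part of such cells in the *Car2* level was not tested.

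*Car13* (ENSMUSG00000027555), also cytosolic, lies near *Car2* at chr3:14641727-14663002 on the plus strand. Its M0 libraries ran from 25.4 to 42.7 CPM with a median of 30.2, its M1 libraries from 20.7 to 41.0 with a median of 27.9, and its M2 libraries from 19.1 to 26.7 with a median of 22.02 CPM. It fell by 0.50 in M2 on the log2 scale (SE 0.07, adjusted p = 1.4e-08, edgeR) and was lower in M2 in all 15 mice. For M1 against M0 the log2 fold change was -0.13 (SE 0.07, adjusted p = 0.077), and 11 of 15 mice had less in M1. With the mouse as a random block in limma-voom it was -0.13 (adjusted p = 0.045). In the libraries numbered 1 and 2 that value was -0.38 (adjusted p = 0.0012), and in those numbered 3 to 5 it was 0.03 (adjusted p = 0.73). The difference between these sets of libraries was not tested, here or for the genes below, and the sets differ in size. M1 against M2 gave 0.37 (SE 0.07, adjusted p = 4e-06), but 0.11 (adjusted p = 0.27) in the libraries numbered 1 and 2. *Clec4e* (r = 0.854), *Cp* (0.823) and *Pkp4* (0.823) followed it most closely.

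*Car7* (ENSMUSG00000031883), a further cytosolic anhydrase, lies at chr8:104534689-104550343 on the plus strand. It was rare, with medians of 1.15 CPM in M0, 0.390 in M1 and 1.14 in M2 and with 5 to 62 reads per library. It fell by 1.37 in M1 on the log2 scale (SE 0.17, adjusted p = 2.1e-09, edgeR), in all 15 mice. For M2 the log2 fold change was 0.12 (SE 0.15, adjusted p = 0.49), with a 95% interval from -0.19 to 0.43. Its closest followers, *Adssl1* (r = 0.888), *Ppfibp1* (0.872) and *Edil3* (0.870), include the muscle-type adenylosuccinate synthase of the purine nucleotide cycle.

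*Car5b* (ENSMUSG00000031373), at chrX:163976822-164027997 on the minus strand, encodes a mitochondrial anhydrase that supplies bicarbonate to carboxylases there. It gave 3 separate levels. M0 libraries ran from 5.89 to 10.2 CPM with a median of 8.96, M1 libraries from 2.21 to 3.53 with a median of 2.90, and M2 libraries from 29.3 to 42.2 with a median of 34.5 CPM. No library of a polarization reached the range of another. Against M0, the M1 level changed by -1.51 (log2, SE 0.09, adjusted p = 9.5e-19, edgeR) and the M2 level by 2.09 (SE 0.08, adjusted p = 4e-24). M1 and M2 differed by -3.60 (SE 0.09, adjusted p = 1.7e-31), so the M2 level was 12.1-fold that of M1.

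In M0 the 6 *Car5b* libraries numbered 1 and 2 held at most 7.22 CPM and the 9 numbered 3 to 5 at least 7.74 CPM, opposite in order to *Car2*. Here too, the share of all genes that separate by number was not counted. Its closest followers were *Il1rl1*, which encodes the interleukin-33 receptor (r = 0.988), the ADP receptor gene *P2ry1* (0.987) and *Hectd2os* (0.985).

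*Car9* (ENSMUSG00000028463), at chr4:43506966-43513729 on the plus strand, encodes a surface anhydrase with its active site outside the cell. Its level varied little. Libraries ran from 9.78 to 13.96 CPM in M0, 10.7 to 15.4 in M1 and 10.8 to 14.4 in M2, with medians of 11.1, 12.7 and 13.1 CPM. Its log2 rise was 0.17 in M1 (SE 0.06, adjusted p = 0.0091, edgeR) and 0.16 in M2 (SE 0.06, adjusted p = 0.013), in 13 of 15 mice each, with overlapping libraries. In the libraries numbered 3 to 5 alone neither passed, at 0.13 (adjusted p = 0.12) and 0.12 (adjusted p = 0.18). The antisense gene *Gm12454* covers 214 of its exon bases, and whether counting used strand is not stated.

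Other genes of the hypoxia response were read beside *Car9*. Of 12 listed, 11 were tested, with 5 higher and 4 lower in M1, where 37.0% and 40.3% of all genes were, and 6 higher and 4 lower in M2, where 36.8% and 39.6% were. *Hif1a*, the oxygen-regulated factor itself, had a median of 126 CPM in M0, 376 in M1 and 139 in M2. *Epas1*, which encodes a related factor, fell by 3.43 in M1 on the log2 scale (SE 0.22, adjusted p = 1.6e-17, edgeR), and *Ndrg1* fell by 2.81 there (SE 0.12, adjusted p = 1.1e-22). In M2, *Egln3*, an oxygen-sensing hydroxylase gene, fell by 1.95 (SE 0.25, adjusted p = 6.3e-09), and *Slc2a1*, a glucose transporter gene, rose by 1.20 (SE 0.12, adjusted p = 5e-12). The genes nearest to *Car9* in pattern were *Stx4a* (r = 0.774), *Bnip1* (0.762) and *Mrpl37* (0.757).

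*Car11* (ENSMUSG00000003273), at chr7:45699843-45704682 on the plus strand, encodes an anhydrase-related protein without catalytic activity. Its libraries held 5 to 29 reads in M0, 2 to 10 in M1 and 1 to 6 in M2. *Car11* had enough reads to be tested through its M0 libraries alone, so its falls are not independent of that filter. Medians were 0.578, 0.170 and 0.124 CPM. It fell by 1.67 on the log2 scale in M1 (SE 0.24, adjusted p = 4.5e-08, edgeR) and by 2.29 in M2 (SE 0.25, adjusted p = 1.4e-10), in 14 of 15 mice each. M1 and M2 differed by 0.62 (SE 0.31, adjusted p = 0.061). Followers were *Tcf4* (r = 0.905), *Slc16a7* (0.884) and *Eps15* (0.884).

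The anion exchanger genes *Slc4a2* and *Slc4a3* encode proteins that swap bicarbonate for chloride. *Slc4a2* (ENSMUSG00000028962), at chr5:24423837-24440950 on the plus strand, had the highest mean number of reads of the 10 in each polarization, with 1395 to 5449 per library. It ran from 79.7 to 116 CPM in M0, 74.6 to 89.7 in M1 and 97.4 to 129 in M2, with medians of 103, 81.7 and 118 CPM. Every M2 library exceeded every M1 library, while both overlapped M0. It fell by 0.32 in M1 on the log2 scale (SE 0.05, adjusted p = 4.1e-08, edgeR) and rose in M2 by 0.20 (SE 0.04, adjusted p = 0.00012). The M2 value was 0.09 (adjusted p = 0.087) in the libraries numbered 3 to 5. *Fastk* and *Gm22333* on the opposite strand overlap its exons by 1141 and 101 bases. *Adam8* (r = 0.942), *Ets2* (0.935) and *Slc39a6* (0.932) followed it.

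*Slc4a3* (ENSMUSG00000006576), at chr1:75546266-75562172 on the plus strand, was scarcer. M0 libraries ran from 2.16 to 3.90 CPM with a median of 2.98, M1 libraries from 0.412 to 1.41 with a median of 0.831, and M2 libraries from 0.960 to 2.69 with a median of 1.96 CPM. All M1 libraries lay below all M0 libraries. It fell by 1.84 in M1 (log2, SE 0.14, adjusted p = 5e-15, edgeR) and by 0.73 in M2 (SE 0.13, adjusted p = 5.7e-06), each in all 15 mice. *Trim47* (r = 0.925), *Sirpa* (0.918) and *Akr1b8* (0.914) followed it.

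*Slc4a7* and *Slc4a8* encode sodium-coupled transporters that bring bicarbonate into the cell, the latter in exchange for chloride. *Slc4a7* (ENSMUSG00000021733), at chr14:14702279-14799940 on the plus strand, ran from 48.0 to 73.9 CPM in M0, 37.1 to 53.5 in M1 and 53.1 to 74.6 in M2. It fell by 0.43 in M1 on the log2 scale (SE 0.06, adjusted p = 1.2e-08, edgeR), in all 15 mice. In M2 the log2 fold change was -0.04 (SE 0.06, adjusted p = 0.50), with a 95% interval from -0.16 to 0.07. That value was 0.15 (adjusted p = 0.12) in the libraries numbered 1 and 2 and -0.18 (adjusted p = 0.022) in those numbered 3 to 5. *Zfp827* (r = 0.889), *Mtpn* (0.859) and *Slc35a3* (0.855) followed it.

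*Slc4a8* (ENSMUSG00000023032), at chr15:100761747-100823968 on the plus strand, was close to absent outside M1. M0 libraries held 1 to 11 reads, with 0.0391 to 0.483 CPM and a median of 0.242 CPM. M2 libraries held 0 to 6 reads and at most 0.225 CPM, and 2 of them had no read, which allows up to 0.114 and 0.111 CPM (3 counts, counting error only). M1 libraries held 105 to 406 reads and 5.80 to 13.1 CPM, with a median of 8.65 CPM. Every M1 library exceeded every M0 and M2 library, and the gene rose in all 15 mice. *Slc4a8* had enough reads to be tested through its M1 libraries alone, so its M1 test and non-overlap are not independent of that filter.

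The log2 fold change of *Slc4a8* was 5.35 (SE 0.19, adjusted p = 2.4e-26, edgeR) in M1, or 40.7-fold, and the M2 value was -1.38 (SE 0.32, adjusted p = 0.00021). The M2 fall rested on very few reads, and in the libraries numbered 1 and 2 it was -0.92 (adjusted p = 0.07). In M1, the libraries numbered 1 and 2 held 8.64 to 13.1 CPM and those numbered 4 and 5 held 5.80 to 9.08 CPM. Those numbered 3 held 8.39 to 10.2 CPM. *Tlr12* (r = 0.992), *Sectm1a* (0.991) and *Ppt1* (0.991) followed its pattern, all over the same 45 libraries.

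**Figure D4:**
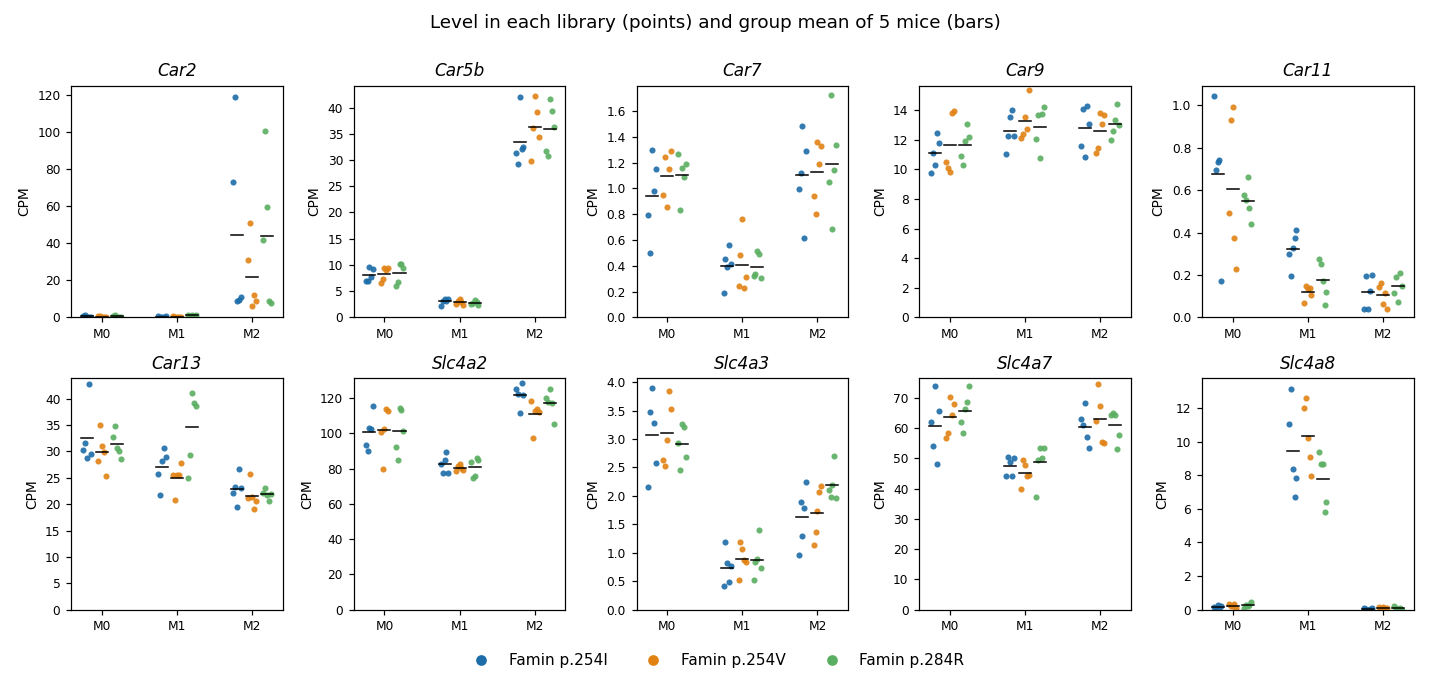
CPM of each gene in each of the 45 libraries on linear axes that start at 0, in M0, M1 and M2, coloured by *Famin* genotype, with bars at the mean of 5 mice. The M0, M1 and M2 libraries of *Car5b* do not overlap, and the M1 libraries of *Slc4a8* lie above the rest. *Car2* spreads from 6.24 to 119 CPM in M2, and 3 p.284R libraries of *Car13* stand high in M1.

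Genotype differences were averaged over M0, M1 and M2. For p.284R minus p.254I, edgeR called 0 of the 10 genes, and 0 had an unadjusted p under 0.05, where 0.0155% of all genes were called and 565 of 12905 had such a p. For p.254V minus p.254I it called 0, with 1 gene (*Car11*) at an unadjusted p under 0.05, where again 0.0155% of all genes were called and 323 had such a p. For p.284R minus p.254V it called 0, with 1 gene (*Car13*) at an unadjusted p under 0.05, and 0% of all genes were called while 607 had such a p. DESeq2 and limma-voom called 0 of the 10 in each of these comparisons as well.

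The smallest unadjusted p for p.284R against p.254I belonged to *Slc4a3*, with a log2 fold change of 0.21 (SE 0.14, 95% interval -0.08 to 0.49, adjusted p = 1, edgeR). For p.254V against p.254I it belonged to *Car11*, with -0.60 (SE 0.28, 95% interval -1.16 to -0.03, adjusted p = 1). The intervals were narrow for the well-measured genes, but the model counts the cultures of a mouse as separate libraries. The intervals can therefore be too narrow for a difference between mice. For p.284R against p.254I they ran from -0.12 to 0.06 for *Slc4a2*, -0.06 to 0.17 for *Slc4a7*, -0.07 to 0.16 for *Car9* and -0.16 to 0.19 for *Car5b*. For *Car2* the interval ran from -0.46 to 1.74.

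Within single polarizations, edgeR called 0 of the 10 genes in each of the 6 comparisons with p.254I. All genes called made up 0.263% for p.284R in M1, 0.00775% for p.284R in M2 and 0% in the other 4. An unadjusted p under 0.05 was found for 2 gene and comparison pairs, both in M1, and DESeq2 and limma-voom called 0. Over all 12905 genes in M1, 864 had such a p for p.284R and 120 for p.254V.

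The first pair was *Car13*. In M1 its p.284R libraries held 24.9, 29.4, 41.0, 39.2 and 38.7 CPM in replicates 1 to 5. Those of p.254I held 25.7, 21.7, 28.2, 30.6 and 28.8 CPM and those of p.254V held 25.6, 20.7, 25.5, 25.5 and 27.9 CPM. The 3 highest p.284R libraries exceeded all 10 of the others, and the lowest did not. Against p.254I this gave 0.36 on the log2 scale (SE 0.12, adjusted p = 0.31, edgeR). Without p.284R mouse 1 it was 0.46 (adjusted p = 0.042), the single setting among those tried under which a genotype difference of these genes passed. In M0 and M2 the same difference was -0.05 (SE 0.11) and -0.07 (SE 0.12).

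The second pair was *Car11*, with 2 to 10 reads per M1 library. p.254V libraries held 0.0687 to 0.148 CPM and p.254I libraries 0.194 to 0.411 CPM, without overlap. The share of all genes without overlap between these groups was not counted. The log2 difference of -1.40 (SE 0.47) had an adjusted p = 1 in edgeR. *Car2* was low in M1 as well, and its p.284R library was the highest of the 3 genotypes at each number, with 1.27, 0.623, 1.45, 0.948 and 1.28 CPM in replicates 1 to 5, against 0.188 to 0.893 CPM in the 10 libraries of p.254I and p.254V. Its log2 fold change against p.254I was 1.62 with a wide 95% interval from -0.56 to 3.81 (adjusted p = 0.90, edgeR). How many of all genes have p.284R highest at each number in M1 was not counted. For *Car2* this order did not hold in M0 or M2, where at number 1 p.284R held 0.903 and 42.1 CPM. There p.254V held 0.920 CPM in M0 and p.254I held 73.1 CPM in M2.

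Whether polarization acted differently by genotype was tested as an interaction over p.254V and p.284R and both polarizations. edgeR called 0 of the 10 genes, 1 (*Car13*) had an unadjusted p under 0.05, as did 141 of all 12905 genes, and 0% of all genes were called. DESeq2 and limma-voom called 0. On the log2 scale the M2 rise of *Car2* was 6.45 (SE 0.84) in p.254I, 5.59 (SE 0.84) in p.254V and, for p.284R, 6.12 (SE 0.81). The M1 rise of *Slc4a8* was 5.78 (SE 0.34), 5.42 (SE 0.32) and 4.84 (SE 0.32) in the same order. The M2 rise of *Car5b* was 2.05 (SE 0.14), 2.13 (SE 0.14) and 2.08 (SE 0.14).

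**Figure D5:**
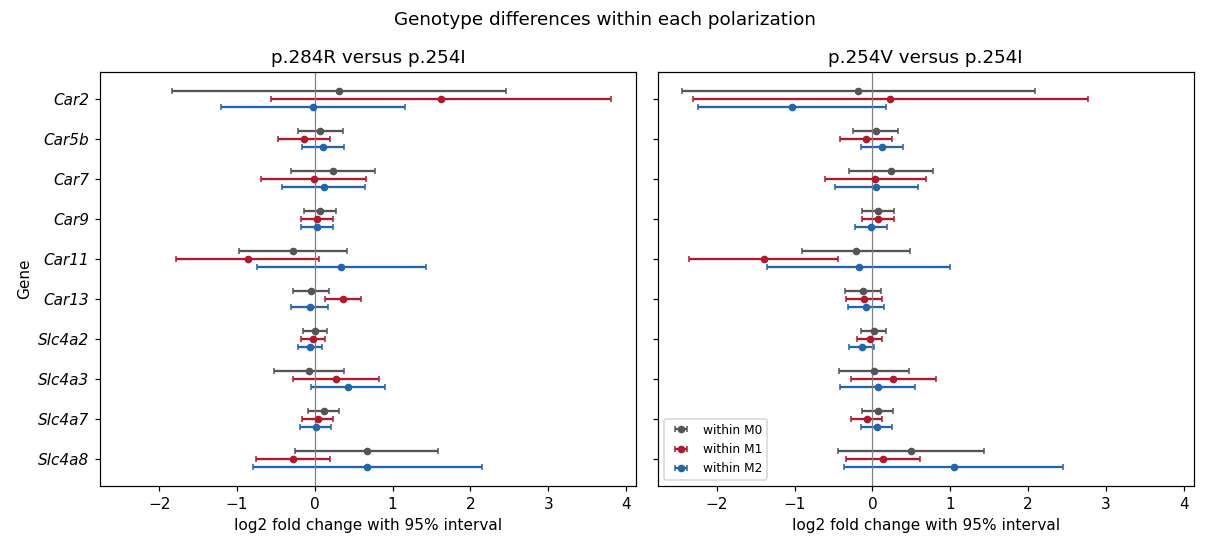
Log2 fold change of p.284R and of p.254V against p.254I within M0, M1 and M2, with 95% intervals from edgeR that are not adjusted for many tests. The interval leaves 0 for *Car13* in M1 for p.284R and for *Car11* in M1 for p.254V, neither of which passed the adjusted threshold.

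Apart from *Slc4a11*, the rest of both families was sparse in these cells. Of 10 other carbonic anhydrase genes, 0 had enough reads to be tested, 3 (*Car1*, *Car8* and *Car10*) had no read in any library, and the membrane-anchored *Car4* reached at most 0.502 CPM, in M2. Of 6 other Slc4 genes, *Slc4a11* alone was tested, with medians of 1.69 CPM in M0, 20.7 in M1 and 5.12 in M2. It rose in M1 by 3.13 (log2, SE 0.19, adjusted p = 5.3e-18, edgeR) and in M2 by 1.25 (SE 0.19, adjusted p = 3.1e-07), and so joined *Slc4a8* in M1 but not in M2.

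Genes that work beside these transporters moved in both directions, as all genes tested did. Of all genes, 37.0% rose and 40.3% fell in M1, and 36.8% rose and 39.6% fell in M2. Of 11 Slc26 anion exchanger genes, 4 were tested, with 1 higher and 3 lower in M1 and 2 higher and 1 lower in M2. *Slc26a11* fell by 2.93 (log2, SE 0.12, adjusted p = 2.8e-24, edgeR) in M1 and by 2.23 (SE 0.11, adjusted p = 1.8e-20) in M2. Of 6 regulators of these carriers, all were tested, with 4 higher and 2 lower in M1 and 3 higher and 2 lower in M2. The largest change among them in each polarization was that of *Stk39*. It rose by 2.20 in M1 (SE 0.13, adjusted p = 2.8e-19) and by 1.00 in M2 (SE 0.13, adjusted p = 5.3e-09). *Ahcyl1*, which encodes the IRBIT protein that activates sodium bicarbonate cotransporters, rose in M2 by 0.88 (SE 0.04, adjusted p = 4.5e-22).

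Of 6 genes for lactate and proton transport, 5 were tested, with 2 higher and 1 lower in M1 and 2 higher and 3 lower in M2. The shares of all genes are those given above for the Slc26 genes. *Slc16a3*, the lactate exporter of glycolytic cells, rose in M1 by 0.98 (log2, SE 0.11, adjusted p = 1e-10, edgeR). In M2, *Slc16a1* rose by 1.20 (SE 0.09, adjusted p = 5.2e-15) and *Slc16a7* fell by 1.02 (SE 0.07, adjusted p = 4.1e-17). In these lists edgeR, by the same test, called 0 genes between genotypes.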

How the data were processed

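The authors deposited read counts per Ensembl gene, unnormalized, for 29307 genes in 45 libraries, and a CPM table for 11900 of them. Whole reads could be worked out from the deposited CPM (100% of values within 0.05 of a whole number), and 100% of these were equal to the count table. The labels name strand-specific single-end libraries, Trim Galore, HISAT2 and mm10, while the series description names Cutadapt and STAR. The counting tool and its use of strand are not given in the sources used here.

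The 10 genes and all lists were chosen with earlier results of these data known. The main model was fitted in edgeR 4.0.16 (R 4.3.3) to 9 group means after filterByExpr (12905 genes), with TMM factors between 0.939 and 1.10 and robust quasi-likelihood dispersions. A call is an adjusted p under 0.05 (Benjamini-Hochberg, over every gene tested), and an SE is the log2 fold change divided by the root of its F. The script was tested on simulated data. DESeq2 1.42.0, limma-voom (limma 3.58.1), other filters and size factors, blocks, counts summed per mouse, the libraries compared alone and left-out mice were the alternatives. Splits by replicate number, the library left out and the reads from CPM were chosen after seeing the data.

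Genes named are the 10, for genotypes those called or else that of smallest p, up to 3 called genes of largest change per list, and the 3 nearest in Pearson r of log2(CPM + 1). Other genes given with values were named after their values were seen. Of the 45 pairs of cultures from 1 mouse, 38 deviated from their group means together (r over 0.1, range -0.12 to 0.58), and the pairing comes from the titles. Symbols, coordinates and exon lengths came from GENCODE of mm10. No source says whether cultures were prepared apart, and the main model has no term for the mouse. Its p-values, SEs and intervals measure the spread between libraries, with the cultures of a mouse counted as separate. The libraries of a genotype come from 5 mice, and the correlation within a mouse was 0.221 in limma-voom. Library totals of 17239009 to 43740283 counts leave genes under 1 CPM with at most 48.2 reads. No libraries held identical values (0), and 0 columns belonged to no sample. A further list, of acid and bicarbonate sensors, is not reported here.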

Additional observations from a re-analysis of the deposited data

Results flagged for a closer look

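Within groups of 5 mice, 81 combinations of gene and group with at least 10 reads in some library were examined for a library far from the other 4 (Dixon's gap over the range above 0.71). There were 4 such libraries, and chance gives about 5%. *Car2* in p.254V M1 mouse 1 was at 0.893 CPM, with the other 4 from 0.208 to 0.366. *Car5b* in p.254I M2 mouse 3 was at 42.0 CPM, with the other 4 from 29.3 to 32.5, although all 3 genotypes were above 41 CPM at this number. *Car13* in p.254I M0 mouse 4 was at 42.7 CPM, with the other 4 from 28.7 to 31.6. *Slc4a7* in p.284R M1 mouse 1 was at 37.1 CPM, with the other 4 from 49.5 to 53.5.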

How the results depend on the processing

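With at least 10 counts in every library, 6 of the 10 genes could be tested, and 5 were called in M2 against M0 and 5 in M1 against M2, where 8 had been called; fewer genes were tested. Leaving out each mouse gave 0 to 1 genotype calls within polarizations, the 1 being *Car13* without p.284R replicate 1. With the mouse as a replicate block, 8 genes were called in each polarization comparison, and 0 between genotypes with a block for the replicate number. With the mouse as a random block in limma-voom, 9 genes were called in M1 against M0, *Car13* being the 1 gained, and the other calls stayed as they were. Libraries sharing a number across genotypes deviated together (r over 0.1) in 15 of 15 pairs in M0, 15 of 15 in M1 and 13 of 15 in M2. No value with a changed sign passed the threshold. Leaving out each mouse, *Car2* in M1 against M0 ran from -0.050 to 0.317, below 0 without p.254I replicate 5 or p.284R replicate 3, and *Car9* in M1 against M2 ran from -0.023 to 0.0309, below 0 without p.254I replicate 3 or p.254V replicate 5. In numbers 1 and 2, *Car2* in M1 against M0 was -0.57 and *Slc4a7* in M2 against M0 was 0.15, and in numbers 3 to 5, *Car13* in M1 against M0 was 0.0261. The cause was not tested. *Car13* in M1 against M0 passed under 5 settings (adjusted p from 0.0012 to 0.046), and *Car11* in M1 against M2 passed without p.254I replicate 2 or 5, p.254V replicate 1 or p.284R replicate 4 (0.024 to 0.043). Of the other values for single genes, 5 lost their call, all in splits by number, which hold fewer libraries. Calls over all genes for p.284R minus p.254I were 2 as reported, 11 with DESeq2, 7 with the replicate block, 0 with counts summed per mouse and 19 without p.284R replicate 1, and without that mouse 7 were called for p.284R minus p.254V, where 0 had been. Low reads limit *Car2* in M0 and M1, *Car7*, *Car11* and *Slc4a8* outside M1.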
